A study of Mus musculus with 6 samples.

Results

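The genes described here are 36 mouse genes of G2 and mitosis, taken by symbol. The list was chosen with earlier results of these data known. It holds cyclins and Cdk1 with its phosphatases, mitotic and checkpoint kinases, kinetochore and chromosome passenger proteins, spindle motors and cytokinesis factors. It also holds the proliferation genes Mki67 and Top2a. On the array a gene is read by probe sets, each a cluster of short probes, some of which can also match related transcripts. Of 45037 probe sets that were not controls, 82 carried the symbol of 35 of these genes. Ccnb1 was not analysed here. Of the 82, 71 passed the filter on dim signals, and all 35 genes had at least 1 that passed, out of 12626 named genes tested. The probe set with the highest mean signal stands for each gene. The question was whether these genes stayed flat between genotypes while other genes moved.

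The cells were immortalized embryonic fibroblasts of the mouse (MEFs, cultured cells of embryonic connective tissue), and all lacked PCAF, a histone acetyltransferase encoded by Kat2b. The 6 arrays fell into 3 from PCAF-/-;GCN5-/- cells and 3 from PCAF-/-;GCN5+/- cells, and GCN5 (gene Kat2a) is the close relative of PCAF. Line A gave 2 RNAs per group, A1 and A2, and line B, immortalized independently, gave 1, called B. Duplicates of 1 line therefore supply much of the spread behind each p-value, and only 2 lines are independent. A retrovirus carried Cre recombinase, which deletes the conditional Kat2a, or nothing beside the vector, and cells were selected with puromycin. GCN5-/- was read as Cre and GCN5+/- as vector; the design text writes GCN5+/- for both. Infection with Cre and loss of GCN5 therefore cannot be told apart, and the PCAF deletion is shared by all 6 arrays. The labels give no further treatment and no age.

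Cells enter mitosis when cyclin B and Cdk1 are activated by the Cdc25 phosphatases, and the spindle checkpoint (Bub, Mad2l1 and Ttk proteins) holds them there until each chromosome is attached. Cdc20, Ube2c and the anaphase-promoting complex then mark cyclins and securin for destruction, which frees separase (Espl1) to part the sister chromatids. Most of these genes are transcribed late in the cell cycle under the DREAM complex, B-MYB and FOXM1. Their promoters often hold CCAAT boxes and a cell cycle homology region (CHR). In RNA from whole cultures, fewer cells in G2 or mitosis and less RNA per such cell cannot be told apart.

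Promoters of 29 of the 35 genes were matched in RefSeq (GRCm38.p6), as windows of 300 bases with 250 before and 50 after the transcription start. The windows of 4 genes on which the results turn are shown: Cdk1 as the kinase at the centre of the set, Aurka as a gene called within line A, and Ccnb2 and Kif2c as genes called in opposite directions between lines. Capitals mark the CCAAT box (CCAAT, or ATTGG where it lies on the other strand) and the CHR core (TTTGAA, or TTCAAA on the other strand), and each window is written 5′ to 3′ on the gene's strand, which is the minus strand for all of these.
Cdk1 promoter, chr10:69352863-69353162, minus strand: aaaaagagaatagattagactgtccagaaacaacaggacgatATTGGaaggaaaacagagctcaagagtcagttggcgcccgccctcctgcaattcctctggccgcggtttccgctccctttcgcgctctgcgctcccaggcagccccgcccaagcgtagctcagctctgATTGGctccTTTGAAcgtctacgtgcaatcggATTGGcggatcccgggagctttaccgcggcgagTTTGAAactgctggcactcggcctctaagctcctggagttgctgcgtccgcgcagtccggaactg
Aurka promoter, chr2:172370521-172370820, minus strand: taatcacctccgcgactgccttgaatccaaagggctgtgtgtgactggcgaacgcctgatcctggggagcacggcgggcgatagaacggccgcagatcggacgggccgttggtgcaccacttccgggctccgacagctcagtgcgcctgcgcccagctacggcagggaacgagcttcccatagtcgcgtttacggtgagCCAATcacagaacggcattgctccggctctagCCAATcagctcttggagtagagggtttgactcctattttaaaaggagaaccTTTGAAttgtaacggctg
Ccnb2 promoter, chr9:70421505-70421804, minus strand: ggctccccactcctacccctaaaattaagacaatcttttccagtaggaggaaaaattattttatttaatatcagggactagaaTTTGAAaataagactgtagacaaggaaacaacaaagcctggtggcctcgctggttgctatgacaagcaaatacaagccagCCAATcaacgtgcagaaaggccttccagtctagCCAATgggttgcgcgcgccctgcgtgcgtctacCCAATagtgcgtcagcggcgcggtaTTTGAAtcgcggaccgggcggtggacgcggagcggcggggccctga
Kif2c promoter, chr4:117178723-117179022, minus strand: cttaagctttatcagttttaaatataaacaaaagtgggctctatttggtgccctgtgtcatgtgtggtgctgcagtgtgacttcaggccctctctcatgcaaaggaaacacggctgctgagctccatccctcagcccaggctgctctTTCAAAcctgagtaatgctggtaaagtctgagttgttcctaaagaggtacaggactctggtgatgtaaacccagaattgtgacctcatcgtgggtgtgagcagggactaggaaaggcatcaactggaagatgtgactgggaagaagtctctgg
A CCAAT match on either strand was found in 25 of the 29 windows (86.2%), compared with 38.9% of the 10150 windows of tested genes and 37.9% of all 27018 windows. TTTGAA was found in 22 of the 29 (75.9%), compared with 11.8% of tested genes and 18.1% of all windows. Both were present in 21 members (72.4%), against 4.71% of tested genes and 7.12% of all. The Kif2c window held TTTGAA without CCAAT, and neither sequence was in the windows of Birc5, Mad2l1 and Nusap1. In Cdca8 a CCAAT match overlapped the TTTGAA match, and in Ube2c 2 CCAAT matches on opposite strands overlapped. These matches describe letters within the window only.

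The label check came from Kat2a. The most changed of its 3 probe sets had signals of 7.97, 7.85 and 7.75 on the GCN5-/- arrays A1, A2 and B, against 9.31, 10.07 and 11.51 on the matching GCN5+/- arrays, and differed by -2.44 ± 0.36 (SE; limma adjusted p = 0.00864). A second differed by -0.75 ± 0.13 (limma adjusted p = 0.0157), and the third did not pass the test (0.18 ± 0.16, limma adjusted p = 0.575). Which of them read the deleted stretch of Kat2a was not determined here. All 3 Kat2b probe sets were too dim to be tested. Of 9 fibroblast markers, Col1a1, Col1a2, Col3a1, Vim and Fn1 were bright on every array, whereas Thy1 was dim in line A. The others were S100a4 (13.27 to 14.39), Pdgfrb (11.53 to 12.95) and Pdgfra (10.52 to 13.01). Of 17 markers of epithelial, endothelial and leukocyte cells, 9 were below the filter on dim signals, among them Ptprc (4.56 to 4.75) and Cdh1 (4.19 to 4.47). The other 8 passed it, among them Csf1r (8.22 to 9.97), Cd68 (6.67 to 8.05), Epcam (8.66 to 9.08) and Krt19 (7.91 to 11.11). All values in the text are log2 signals as deposited, and a difference of 1 is a doubling on that scale.

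The G2 and mitosis genes were among the brighter genes in these cells. Their mean signals lay between 9.46 (Cdc25c, a phosphatase that activates Cdk1) and 13.09 (Ube2c, the ubiquitin-conjugating enzyme of the anaphase-promoting complex), with a median of 11.75 compared with 9.87 over all tested genes. Signals of different genes depend on their probes, so this order is not one of transcript number. The median over the 35 genes stood at 11.69 (A1), 11.76 (A2) and 11.62 (B) in GCN5-/- cells, and at 11.60, 11.84 and 11.85 on the matching GCN5+/- arrays.

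**Figure D1:**
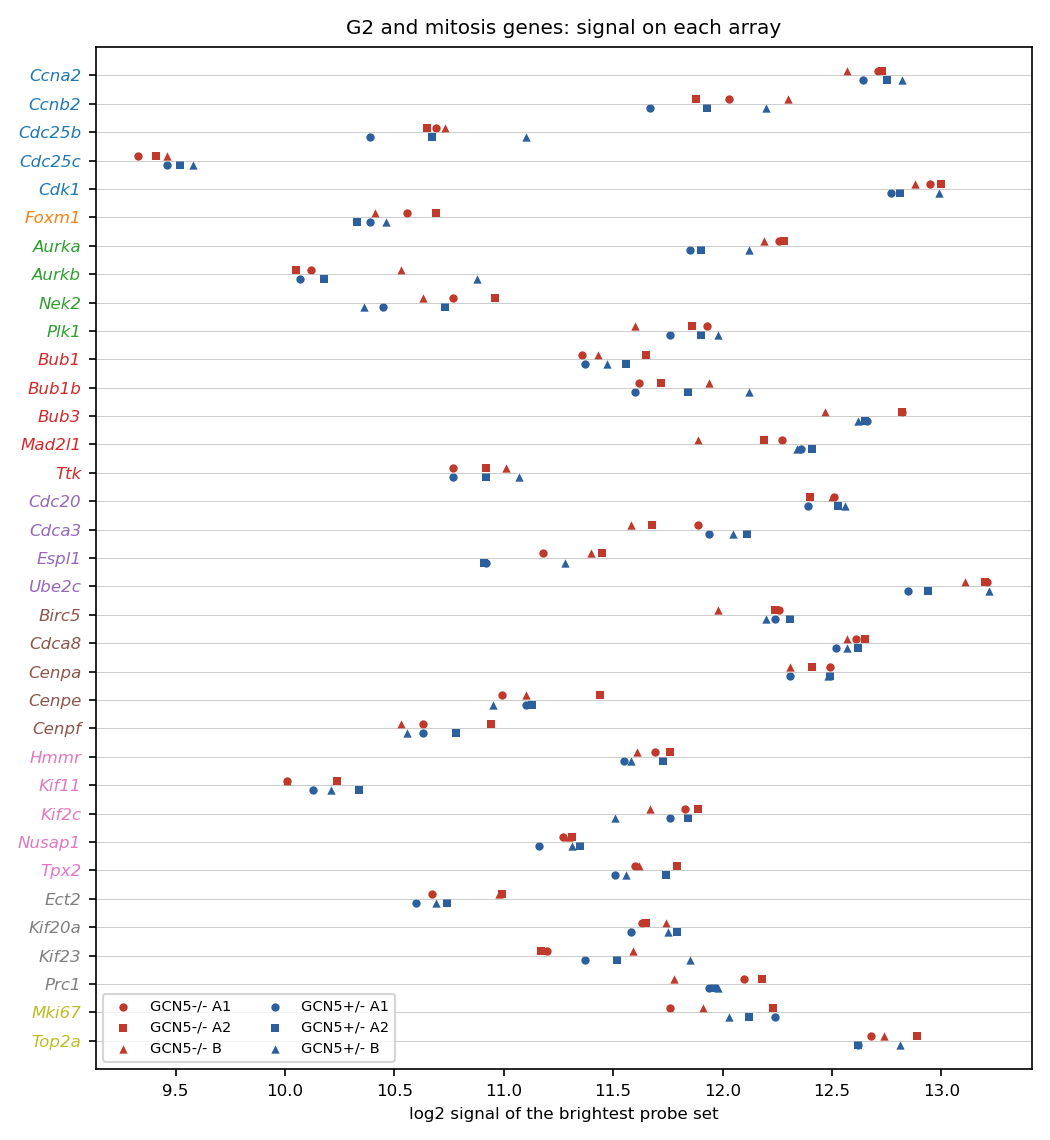
Log2 signal of the brightest probe set of each of the 35 G2 and mitosis genes (horizontal axis) on the 6 arrays, with GCN5-/- arrays in red above GCN5+/- arrays in blue, and circles, squares and triangles for A1, A2 and B; gene names are coloured by role. Mean signals range between 9.46 (Cdc25c) and 13.09 (Ube2c), and the red and blue points interleave for all but 4 genes.

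Between genotypes, none of the 35 genes passed the test (GCN5-/- minus GCN5+/-, limma with cell line as covariate, adjusted p under 0.05 over all 27022 probe sets), and none of the 71 tested probe sets did. The background was 8.51% of all probe sets, 9.86% of named genes, and 11.7% of the 7250 named genes at least as bright as Cdc25c. The smallest adjusted p among members was 0.0629, for Aurka. At an unadjusted p under 0.05 there were 6 members, against a background of 26.7% of named genes. The genotype groups did not overlap for 4 members (Aurka, Cdca3, Mad2l1 and Cdc25c), where the background was 18.2%. On the same arrays 4 of 9 fibroblast markers were called lower in GCN5-/- cells, and the summed linear signal of the 9 was 139645 to 142658 in GCN5-/- and 141755 to 157139 in GCN5+/-. The part of this shift in the values of the mitotic genes was not tested.

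A missed threshold does not show sameness, so the width of the intervals was read as well. No member differed by 0.5 log2 units (1.41-fold) or more, against 6.04% of named genes. For 32 of the 35 members the 95% interval of the genotype difference lay wholly inside -0.5 to 0.5, against 79.2% of named genes and 80.3% of those at least as bright as the dimmest member. The distance between an estimate and its interval bound had a median of 0.19 and was at most 0.29. The 3 exceptions reached just past the band: Espl1 to 0.53, Nek2 to 0.51 and Cdca3 to -0.52, so that the farthest bound of any member stood for a 1.45-fold difference. The median difference over members was 0.02 and the median absolute difference 0.09, compared with 0.01 and 0.12 over all named genes, and 19 members lay above 0 and 16 below.

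**Figure D2:**
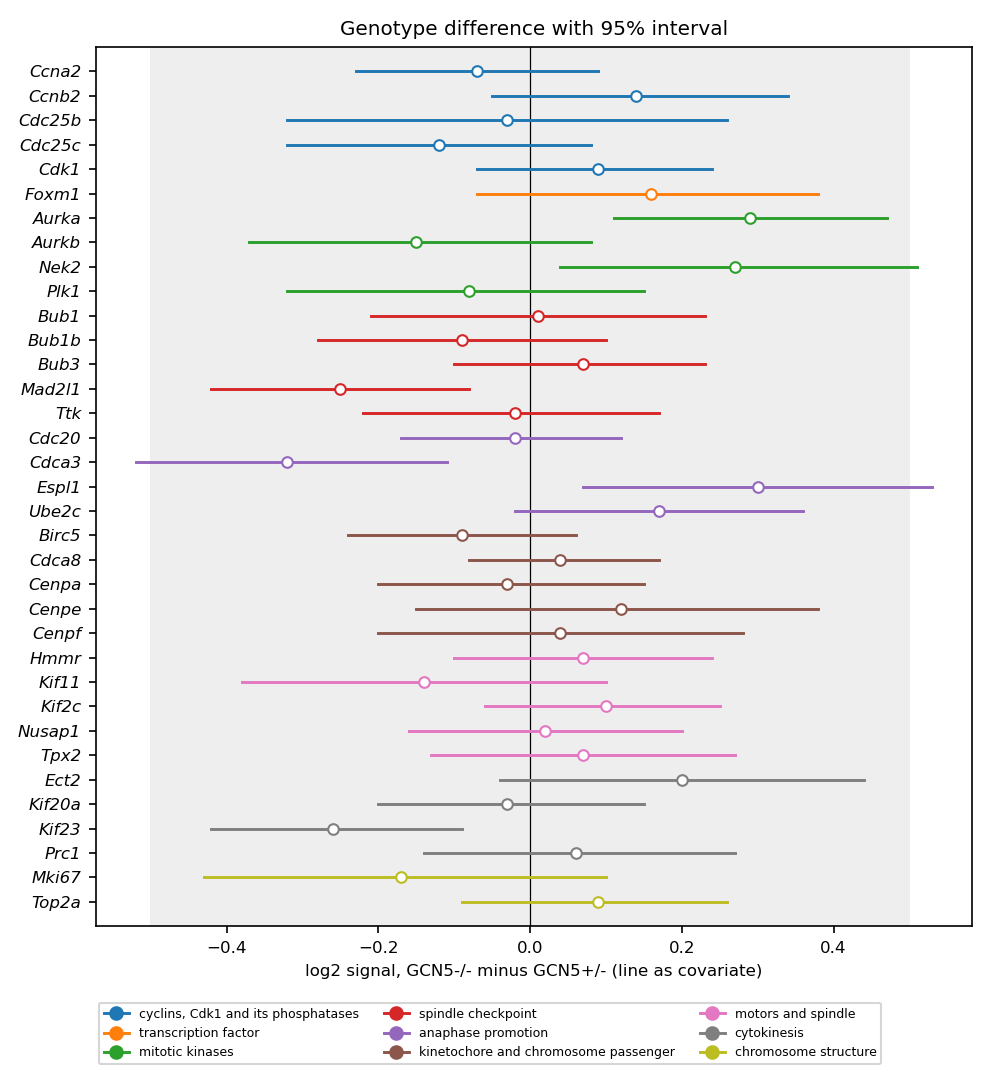
Genotype difference of each G2 and mitosis gene (GCN5-/- minus GCN5+/-, log2 signal, limma estimate over 6 arrays with cell line as covariate) with its 95% interval, coloured by role; the grey band marks -0.5 to 0.5 and open points did not pass the test. All 35 estimates lie within the band, and 3 intervals (Espl1, Nek2, Cdca3) reach just beyond it.

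Among the genes that drive entry into mitosis, Cdk1, the kinase that cyclins A and B activate, read 12.95 (A1), 13.00 (A2) and 12.88 (B) in GCN5-/- cells, and 12.77, 12.81 and 12.99 in GCN5+/- cells. The same order of arrays is kept below. The groups overlapped through the line B arrays, and the difference was 0.09 ± 0.07 (SE, n = 3 each; limma adjusted p = 0.499; 95% interval -0.07 to 0.24). Its partner Ccnb2 (cyclin B2) had 12.03, 11.88 and 12.30 in GCN5-/- and 11.67, 11.93 and 12.20 in GCN5+/-, a difference of 0.14 ± 0.08 (limma adjusted p = 0.359). Ccna2, cyclin A2, which acts from S phase into early mitosis, differed by -0.07 ± 0.07. The phosphatases differed by -0.03 (Cdc25b) and -0.12 (Cdc25c). Foxm1, the transcription factor that drives many of the other members, read 10.56, 10.69 and 10.41 in GCN5-/-, and 10.39, 10.33 and 10.46 in GCN5+/-. Its highest 2 signals were the line A GCN5-/- arrays, and the difference of 0.16 ± 0.10 did not pass the test (limma adjusted p = 0.382).

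The mitotic kinases did not share a direction. Aurka, the centrosomal Aurora kinase, read 12.26, 12.28 and 12.19 in GCN5-/- cells, against 11.85, 11.90 and 12.12 in GCN5+/- cells. Every GCN5-/- array was above every GCN5+/- array, with differences of 0.41 and 0.37 for line A and 0.07 for line B when paired, and the fitted difference was 0.29 ± 0.08 (limma adjusted p = 0.0629; 95% interval 0.11 to 0.47). Nek2, a kinase of centrosome separation, read 10.77, 10.96 and 10.63 in GCN5-/- and 10.45, 10.73 and 10.36 in GCN5+/-. It was higher in each pair, yet the groups overlapped (0.27 ± 0.10, limma adjusted p = 0.142). Plk1, the Polo kinase that acts at centrosomes, kinetochores and the midzone, had 11.93, 11.86 and 11.60 in GCN5-/-, and 11.76, 11.90 and 11.98 in GCN5+/-. The line B array was the lowest of the GCN5-/- group and the highest of the GCN5+/- group, and the difference was -0.08 ± 0.10 (limma adjusted p = 0.677). It turned to 0.06 when either line B array was left out. Aurkb, the Aurora kinase of the chromosome passenger complex, read 10.12, 10.05 and 10.53 in GCN5-/- and 10.07, 10.18 and 10.88 in GCN5+/-, with the line B array highest in both groups (-0.15 ± 0.10, limma adjusted p = 0.418).

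Of the spindle checkpoint genes, Mad2l1, which binds and inhibits Cdc20, had the lowest genotype difference, with signals of 12.27, 12.19 and 11.89 in GCN5-/-, and 12.36, 12.41 and 12.34 in GCN5+/-. All 3 GCN5-/- signals were below all 3 GCN5+/- signals, and the difference of -0.25 ± 0.08 missed the threshold (limma adjusted p = 0.0803). The checkpoint kinase genes Bub1 and Ttk and the checkpoint genes Bub1b and Bub3 lay between -0.09 and 0.07. A second, dimmer Bub1 probe set read 0.34 ± 0.18, also not called.

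Genes of the exit from mitosis and of regulated protein degradation spanned the whole range of the set. Cdc20, the activator of the anaphase-promoting complex, read 12.51, 12.40 and 12.50 in GCN5-/-, and 12.39, 12.53 and 12.56 in GCN5+/-, a difference of -0.02 ± 0.06 (limma adjusted p = 0.883). The groups overlapped almost completely. Espl1 (separase) had the highest estimate of the 35, with 11.18, 11.45 and 11.40 in GCN5-/- against 10.92, 10.91 and 11.28 in GCN5+/-. The GCN5+/- line B array lay inside the GCN5-/- range, and the difference was 0.30 ± 0.10 (limma adjusted p = 0.104). Cdca3, known in frog eggs as a trigger of mitotic entry through Wee1 degradation, had the lowest estimate, with 11.89, 11.68 and 11.58 in GCN5-/- against 11.94, 12.11 and 12.05 in GCN5+/-. These groups did not overlap (-0.32 ± 0.09, limma adjusted p = 0.0694). Ube2c read 13.21, 13.20 and 13.11 in GCN5-/- and 12.85, 12.94 and 13.22 in GCN5+/-, where its line A arrays were low and its line B array was the highest of all (0.17 ± 0.08, limma adjusted p = 0.257).

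At their brightest probe sets, the structural genes of the mitotic chromosome and spindle lay close to 0. The 5 kinetochore and chromosome passenger genes (Birc5, Cdca8, Cenpa, Cenpe and Cenpf) had differences between -0.09 and 0.12, and the 5 motor and spindle genes (Hmmr, Kif11, Kif2c, Nusap1 and Tpx2) between -0.14 and 0.10. Dimmer tested probe sets of these genes spread wider, and none was called. Among them were -0.26 ± 0.14 for Cenpf, -0.18 ± 0.23 for Cenpe, 0.29 ± 0.12 for Tpx2 and 0.28 ± 0.12 for Nusap1. Among the cytokinesis genes, Kif23, a motor of the central spindle, read 11.20, 11.17 and 11.59 in GCN5-/-, and 11.37, 11.52 and 11.85 in GCN5+/-. It was lower in each pair, and the groups overlapped because line B was higher in both genotypes (-0.26 ± 0.07, limma adjusted p = 0.0702). Ect2, Kif20a and Prc1 had 0.20, -0.03 and 0.06.

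Mki67, the antigen used to count cycling cells, read 11.76, 12.23 and 11.91 in GCN5-/-, and 12.24, 12.12 and 12.03 in GCN5+/-. The duplicate RNAs of GCN5-/- line A were its lowest and its second highest signals, and the difference was -0.17 ± 0.11 (limma adjusted p = 0.437; 95% interval -0.43 to 0.10). Top2a, the topoisomerase that untangles chromosomes before anaphase, read 12.68, 12.89 and 12.74 in GCN5-/- and 12.62, 12.62 and 12.81 in GCN5+/-, a difference of 0.09 ± 0.07 (limma adjusted p = 0.547).

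The pairs did not all lean the same way. The median difference over the 35 genes was 0.08 in pair A1 (25 above 0), 0.04 in pair A2 (18 above 0) and -0.07 in pair B (10 above 0), where the medians over all genes were 0.02, 0.00 and -0.01. For comparison between duplicate RNAs of the same cells, A2 minus A1 had a median of 0.04 over the members in GCN5-/- (24 of 35 above 0) and 0.14 in GCN5+/- (31 of 35 above 0), with 0.01 and 0.04 over all genes. Set against each gene's own mean over the arrays, the members had a median deviation of 0.00, 0.08 and -0.02 on the GCN5-/- arrays, and of -0.10, 0.05 and 0.06 on the GCN5+/- arrays. The GCN5+/- A1 array was thus the lowest for these genes, with 6 of 35 above their own mean, and it enters pair A1.

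**Figure D3:**
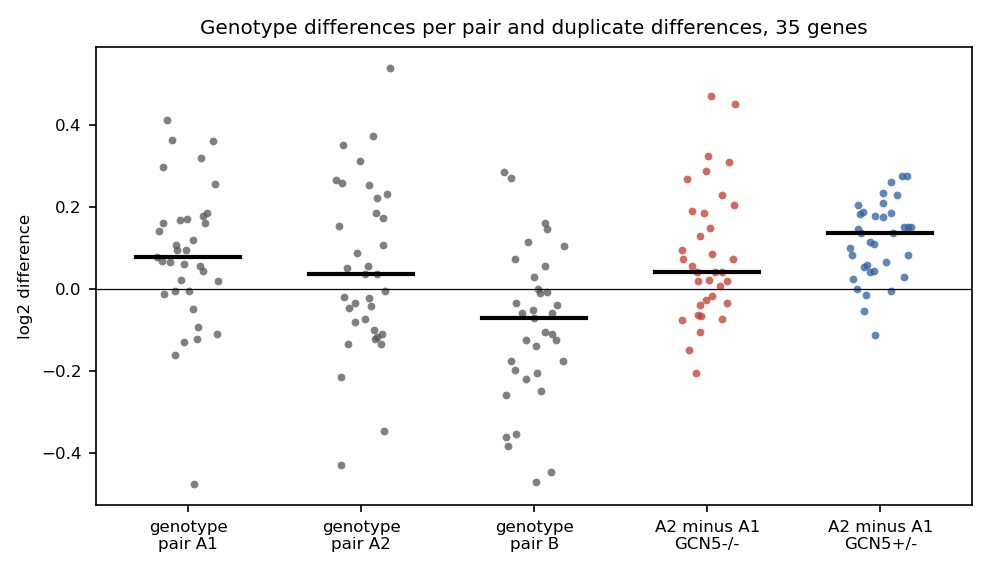
Differences of the 35 G2 and mitosis genes (points, log2 signal) for GCN5-/- minus GCN5+/- in pairs A1, A2 and B, and for A2 minus A1 duplicate RNAs within GCN5-/- and within GCN5+/-; bars are medians and points are spread sideways for display. The median is above 0 in pairs A1 (0.08) and A2 (0.04), below 0 in pair B (-0.07), and 0.14 between the GCN5+/- duplicates.

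Within line A alone, 2 of the 35 genes were called, against a background of 10.8% of named genes, and both were higher in GCN5-/- cells. Aurka rose by 0.39 ± 0.07 (limma adjusted p = 0.0121) and Ube2c by 0.31 ± 0.05 (limma adjusted p = 0.0119), each over duplicate RNAs of 1 line. Espl1 and Cdk1 came next, with 0.40 ± 0.11 and 0.19 ± 0.05 (limma adjusted p = 0.0649 and 0.0716).

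The test of whether the genotype difference itself differed between lines called no member, where 0.0396% of named genes were called. Its smallest adjusted p was 0.228, for Ube2c, whose genotype difference in line B minus that in line A was -0.42 ± 0.09. At an unadjusted p under 0.05 there were 9 members (Ube2c, Bub3, Cdk1, Plk1, Prc1, Aurka, Ccna2, Mad2l1 and Cdc25b), against a background of 9.64% of named genes, and all 9 were lower in line B than in line A in their genotype difference. Over all members the median of this term was -0.11, with 30 of 35 below 0, compared with -0.02 and 53.6% over all genes. Line B had 1 array of each genotype, and the error of this term comes wholly from the line A duplicates. All members are read on the same arrays, so they are not independent counts of this term. The part of any single array in it was not tested.

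Other gene lists were read on the same arrays, beside the 9.86% of all named genes that were called. A list of further mitosis genes had 2 of 75 tested genes called and both were higher in GCN5-/-: Smc2, a condensin subunit (0.32 ± 0.07, limma adjusted p = 0.0258), and Zwint, a kinetochore protein (0.21 ± 0.05, limma adjusted p = 0.0320). This is 2.67% of the list, whose median was 0.03, close to that of the 35 members. Among DNA replication and S phase genes, 7 of 39 (17.9%) were called higher and none was called lower, with a median of 0.12. Among G1 cyclins, kinases and RB-E2F genes 2 of 27 (7.41%) were called higher, with a median of 0.10. Examples were the replicative helicase subunits Mcm6 (0.36 ± 0.05) and Mcm5 (0.40 ± 0.07), and the G1 genes Cdk6 (0.44 ± 0.08) and Ccne1 (0.42 ± 0.09). Interferon-stimulated genes were of another order, with 27 of 28 (96.4%) called higher in GCN5-/- and a median of 2.60, and the deubiquitinase gene Usp18 stood at 4.55 ± 0.09 (limma adjusted p = 8.05e-07). The difference between these lists and the G2 and mitosis genes was not tested.

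**Figure D4:**
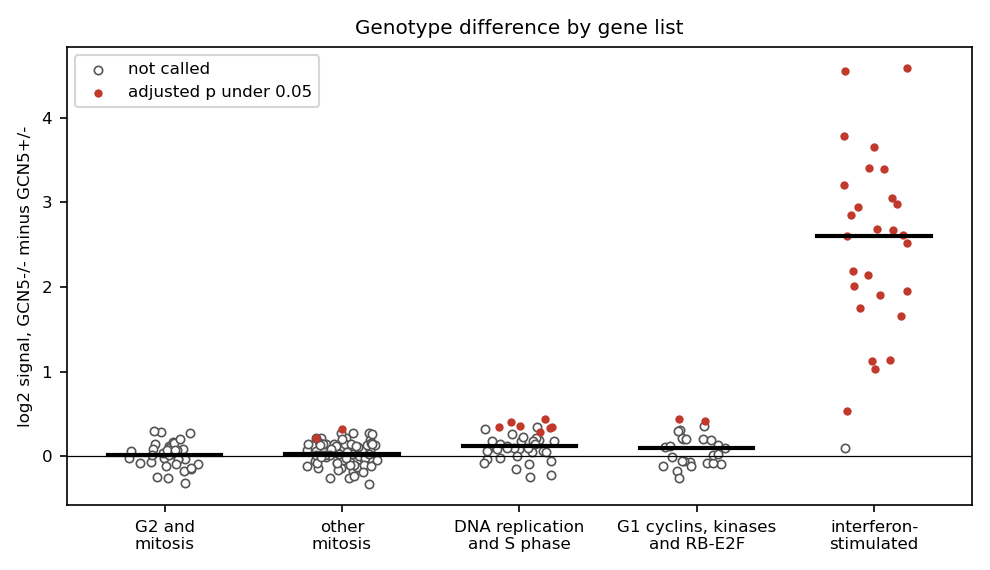
Genotype difference (GCN5-/- minus GCN5+/-, log2 signal, limma estimate) of each tested gene in 5 lists; bars are list medians, red points passed the test and open points did not. The 35 G2 and mitosis genes hold no red point and a median of 0.02, while 27 of 28 interferon-stimulated genes are red with a median of 2.60.

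Between the lines, 5 of the 35 genes were called (line B minus line A, limma with genotype as covariate), against a background of 26.7% of named genes and 30.5% of those at least as bright as the dimmest member. Higher in line B were 4 members, where the background in that direction was 13.2%, and 1 was lower, where it was 13.5%. The median difference over members was -0.03 and the median absolute difference 0.09, compared with 0.01 and 0.16 over all genes, and Aurkb was the 1 member past 0.5.

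Aurkb averaged 10.71 ± 0.25 in line B (SD, n = 2) and 10.11 ± 0.06 in line A (SD, n = 4), a difference of 0.60 ± 0.10 (SE, limma adjusted p = 0.00491), and its second probe set gave 0.59 ± 0.12. Kif23, its partner at the central spindle, averaged 11.72 ± 0.18 in line B and 11.32 ± 0.16 in line A (0.41 ± 0.08, limma adjusted p = 0.00713). Both line B arrays were above all 4 line A arrays for each of these genes. The lines also did not overlap for some members that were not called. The share over all genes was not computed, so non-overlap is not read as a trait of the set. Ccnb2 averaged 12.25 ± 0.08 in line B and 11.88 ± 0.15 in line A (0.37 ± 0.09, limma adjusted p = 0.0192). Bub1b, which encodes the checkpoint protein BubR1, read 11.94 and 12.12 in line B (GCN5-/- and GCN5+/-), and between 11.60 and 11.84 in line A (0.34 ± 0.09, limma adjusted p = 0.0264). Its line B arrays were also the upper 2 of the 6. Kif2c, a kinesin that takes microtubules apart at kinetochores, read 11.67 and 11.51 in line B and between 11.76 and 11.89 in line A (-0.24 ± 0.07, limma adjusted p = 0.0441). Its other 2 tested probe sets gave -0.20 and -0.09 and were not called. The probe sets read for Aurkb and the called one for Kif2c carry Affymetrix suffixes for probes that can also match related transcripts. So do those that stand for Bub3, Cdc20, Cdc25c, Cdca8, Nek2 and Prc1.

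Without the GCN5+/- line B array, none of these 5 kept its call. Line B is then a single array, so only the differences are read. The differences themselves were then 0.45 for Aurkb, 0.41 for Kif23, 0.35 for Ccnb2, 0.27 for Bub1b and -0.19 for Kif2c. Without the GCN5-/- line B array they were 0.76 for Aurkb, 0.41 for Kif23, 0.40 for Ccnb2, 0.40 for Bub1b and -0.29 for Kif2c. In every alternative run that kept both line B arrays, Aurkb and Kif23 were called, against a background of 19.6% to 31.9% of named genes. Among markers of other cell types, Krt19, an epithelial keratin, was higher in line B by 2.86 ± 0.17 (limma adjusted p = 1.87e-05). The summed linear signal of 6 epithelial markers was 2669 to 3037 in line B and 911 to 1105 in line A, that of 6 leukocyte and macrophage markers 765 to 841 in line B and 1005 to 1381 in line A, and that of 5 endothelial markers 932 to 1066 in line B and 1143 to 1782 in line A. Within the leukocyte and macrophage list, Csf1r was lower in line B (-1.35 ± 0.13, limma adjusted p = 0.000248) and Cd68 higher (0.91 ± 0.11, limma adjusted p = 0.000865). In the endothelial list Flt1 was lower in line B (-0.97 ± 0.17, limma adjusted p = 0.00456). Of the 9 fibroblast markers, 3 were called higher in line B and 4 lower. Thy1 was higher by 2.95 ± 0.19 (limma adjusted p = 3.57e-05) and Pdgfra was lower (-1.91 ± 0.14, limma adjusted p = 6.21e-05). The part of all these markers in the line differences of the mitotic genes was not tested. None of the 8 tested genes of the epithelial, endothelial, and leukocyte and macrophage lists was called between genotypes. The background was 9.86% of named genes, so no call among so few genes says little. Flt1 differed by -0.51 ± 0.16 (limma adjusted p = 0.0846) and Cd68 by 0.38 ± 0.10 (limma adjusted p = 0.0606).

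**Figure D5:**
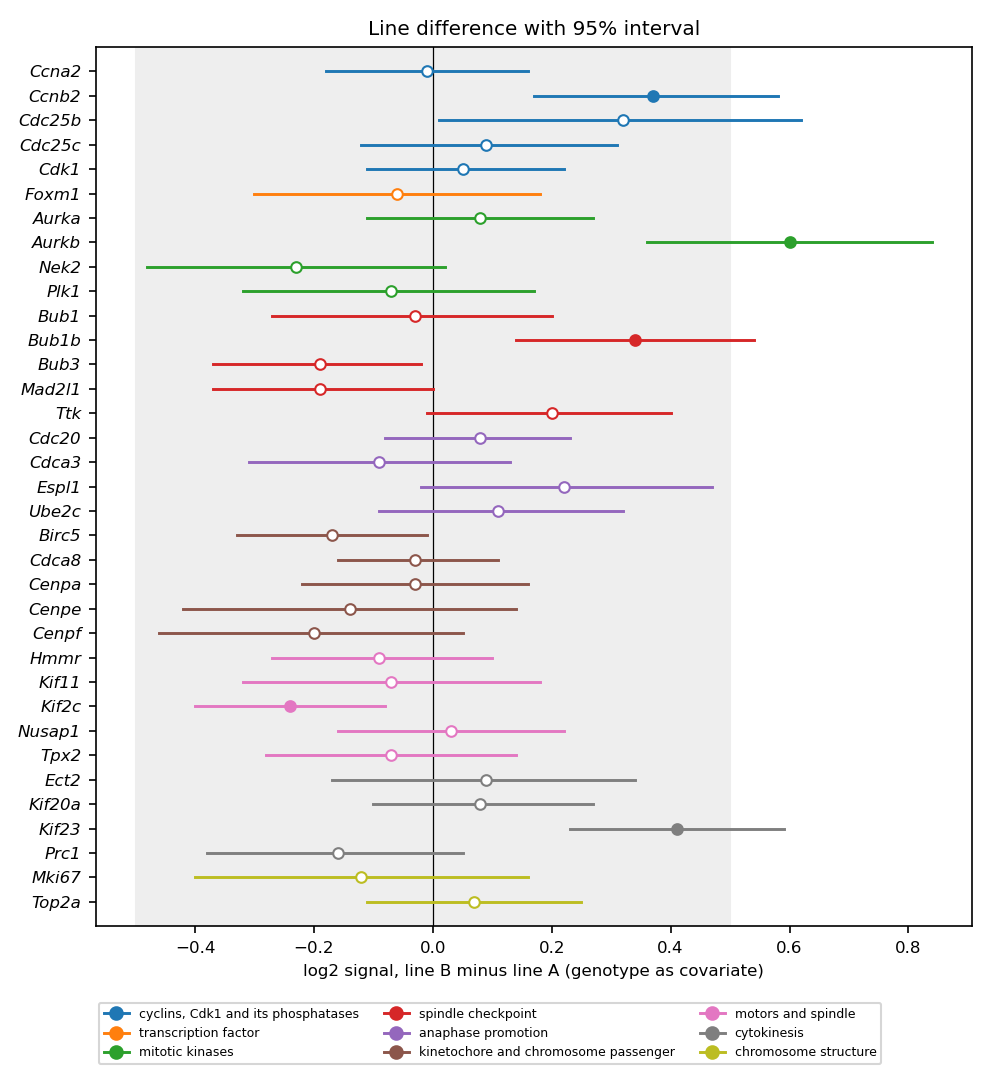
Difference between lines of each G2 and mitosis gene (line B minus line A, log2 signal, limma estimate with genotype as covariate) with its 95% interval, coloured by role; filled points passed the test and the grey band marks -0.5 to 0.5. Aurkb (0.60), Kif23 (0.41), Ccnb2 (0.37) and Bub1b (0.34) are filled above 0 and Kif2c (-0.24) is filled below 0.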

How the data were processed

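Total RNA was read on 6 Affymetrix arrays. The authors deposited 1 log2 signal for each probe set and array; that they are log2 was inferred from their range. MAS5 and Partek are named, with no role, per the submitters' processing notes, and how background was corrected and arrays normalized is not stated in what was used here. Medians per array were 7.405 to 7.455, so the values had been scaled before deposit, which removes a change shared by most genes. No detection calls were used, and the number of arrays limits the precision.

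After 64 control probe sets were left out, 45037 of 45101 remained. The platform annotation gave 34945 of them 1 symbol, 932 several and 9160 none; those with several name no gene here. Symbols were updated through 34754 Entrez IDs matched to RefSeq (GRCm38.p6). The brightest probe set stood for a gene.

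Probe sets with a mean at or above the 40th percentile (6.796) were fitted with limma 3.58.1 in R 4.3.3 (lmFit, eBayes with a mean-variance trend), with genotype and line as terms; 27022 were tested, and an adjusted p (Benjamini-Hochberg) under 0.05 was called. Intervals are 95% intervals of that fit, which had 3 residual degrees of freedom. The line A values and the test between lines came from a fit with the product term (2 residual degrees of freedom). The genotype fit was run on simulated data with independent noise and with changes larger than those of any member. Differences as small as those of the members were not simulated, so that run does not bear on them. Replicate names pair arrays by cell line. Deviations from the group means, which carry the line difference, correlated at 0.714, 0.727 and 0.846 in pairs A1, A2 and B. Between unmatched line A arrays of the 2 genotypes they correlated at 0.509 and 0.443. With line fitted, the residuals correlated at 0.2025 and 0.1694 in pairs A1 and A2, and at -0.4653 and -0.5566 between the unmatched arrays. Values on every array are given for a set of core genes, the 3 highest and 3 lowest genotype differences, and called members; of other lists, at most 4 called genes with the smallest p. Members, lists and rules were chosen with earlier results of these data known. Alternatives were the line term (none, random block, replicate block), averaged duplicates, the filter, quantile normalization, the variance trend and each array left out.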

Additional observations from a re-analysis of the deposited data

How the results depend on the processing

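No G2 and mitosis gene was called between genotypes in the alternatives that kept both line B arrays, the replicate block included. With 1 array left out, 0 to 2 were called. The 2 were Aurka and Ube2c, without either line B array. The background there was 10.8% of named genes without the GCN5-/- array and 10.7% without the GCN5+/- array. The share of named genes called was 0.341% with no line term, 2.44% with a random block and 2.87% with duplicates averaged. It was 2.97% to 5.13% with 1 line A array left out, and 6.97% to 13.3% in the other alternatives that kept all arrays. Where that share was low, 0 of 35 says little about the members. The number of members with an interval inside -0.5 to 0.5 ranged over 27 to 33, and the median difference over -0.04 to 0.06. Over all probe sets, 2299 were called between genotypes, 2627 with the replicate block, 69 with no line term, 532 with line as a random block, 709 with the line A duplicates averaged, and 645 to 2309 with 1 array left out. Of the 13 members followed with each array left out, Plk1 (-0.17 to 0.06) and Cdc20 (-0.07 to 0.01) changed sign. Leaving out either line B array gives the line A difference, which also had the opposite sign for Ccna2 (0.02 against -0.07), Cdc25b (0.14 against -0.03) and Cenpa (0.05 against -0.03). Between lines, the members called numbered 5, and 3 with the duplicates averaged, 3 with no variance trend, and 3 to 4 with 1 array left out, while all probe sets called numbered 6246, and 3025 to 5379 with 1 array left out. Kif2c was lost in 9 alternatives (differences over all alternatives -0.29 to -0.19), Bub1b in 6 (0.27 to 0.40) and Ccnb2 in 3 (0.31 to 0.43). The share of named genes called between lines was 19.6% with the duplicates averaged and 23.9% with no variance trend. It was 19.8% to 23.1% with 1 line A array left out. The causes of these changes were not tested, and the reduced fits also had fewer arrays. Duplicate RNAs of line A and 1 array per genotype in line B limit the precision: the 95% interval of a member reached up to 0.29 log2 units to either side of its genotype difference.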
